A study of Sus scrofa with 4 samples.

Results

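The collagen crosslinking and hydroxylation enzymes studied here are 10 genes, chosen by name from their known function. The rule used no values, but earlier results of these data were known when the 10 genes were chosen. They are the lysyl oxidases LOX, LOXL1, LOXL2, LOXL3 and LOXL4, the prolyl 4-hydroxylase alpha subunits P4HA1 and P4HA2, and the lysyl hydroxylases PLOD1, PLOD2 and PLOD3. They are 10 of the 16192 protein-coding genes listed, and all 10 were among the 9191 mRNAs that were reliably expressed, that is with an FPKM no lower than 1 in 3 or more libraries. FPKM counts fragments per kilobase of gene length, scaled to the fragments of the library, so that levels of different genes can be set side by side.

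RNA was sequenced from subcutaneous preadipocytes of male Chinese Erhualian pigs, the precursor cells of fat under the skin, at 4 stages of differentiation in culture. The D0 cells were taken before induction on day 0, the D2 cells on day 2 after a cocktail of dexamethasone, 3-isobutyl-1-methylxanthine and insulin, the D4 cells on day 4 after a further period with insulin alone, and the D8 cells on day 8 after a return to growth medium. RNA of 3 piglets aged 5 days was mixed in equal amounts at each stage and made into 1 strand-specific library depleted of ribosomal RNA, so that each stage has 1 library and no replicate. Stage and library therefore cannot be told apart, no test between stages was possible, and the intervals below cover counting error only, not the spread between piglets or library preparations.

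Collagen chains are modified in the endoplasmic reticulum before they are secreted. Prolyl 4-hydroxylases turn prolines into 4-hydroxyprolines, which keep the triple helix stable at body temperature, and lysyl hydroxylases turn lysines into hydroxylysines, the attachment sites of sugars and the precursors of certain crosslinks. Outside the cell, the copper-dependent lysyl oxidases convert lysines and hydroxylysines of collagen, and lysines of elastin, into aldehydes that join neighbouring molecules. The hydroxylases need oxygen, iron, 2-oxoglutarate and ascorbate, and several of these genes, among them LOX, P4HA1, P4HA2 and PLOD2, are known to be induced by low oxygen. In fat, the collagen mesh around the cells is rebuilt as preadipocytes fill with lipid.

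The library totals behind FPKM lay between 54128151 and 75387428 fragments. The 10 genes had between 174 and 76905 reads per library. Among marker genes of the cultured cells, the summed FPKM of 4 adipocyte markers was 83.9, 267, 1252 and 1860.4 at D0, D2, D4 and D8, and that of 4 stromal markers was 348, 575, 596 and 384. Endothelial markers summed to at most 2.63, with VWF and CDH5 at or near 0, and leukocyte markers to at most 7.80, nearly all of it CD14. Skeletal muscle markers were not analysed here. The signal recognition particle RNA gene LOC102723301 held from 12.4% to 17.1% of the fragments, and protein-coding genes from 70.0% to 78.1%.

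The lysyl oxidases changed in opposite directions up to D4. LOXL2 had its highest level at D4, 2.50-fold above D0, while LOXL4 and LOXL3 had their lowest level there, 11.5-fold and 6.47-fold below D0. LOX, the founding member of the family, stayed within a 1.45-fold range over the 4 libraries. In RNA of whole cultures, fewer cells of a type and less RNA per cell cannot be told apart.

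**Figure D1:**
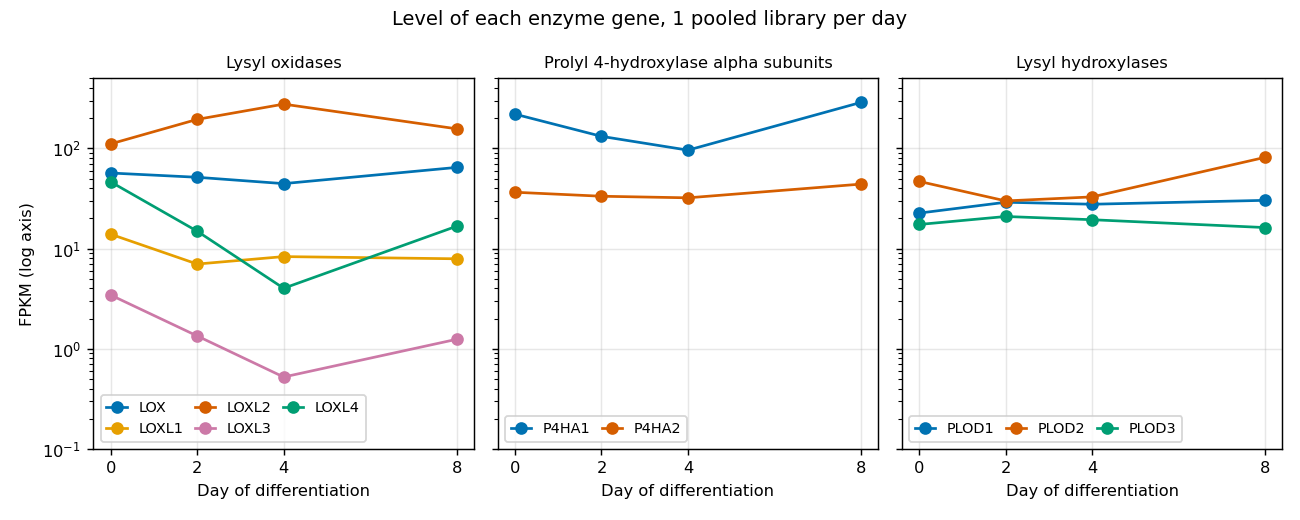
FPKM on a log axis against the day of differentiation, with 1 point for each gene and pooled library and lines that only join the points. LOXL2 peaks at D4 (277 FPKM), LOXL4 and LOXL3 have their lowest point at D4 (4.01 and 0.521 FPKM), and P4HA1 and PLOD2 are highest at D8 (288 and 81.5 FPKM).

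LOXL2, a lysyl oxidase with scavenger receptor domains that crosslinks fibrillar and basement membrane collagen, lies on the minus strand of chromosome 14 from 7435861 to 7540699 (Sscrofa11.1). Its level was 111, 195, 277 and 157 FPKM at D0, D2, D4 and D8. The level was thus higher in each library up to D4, and the D8 library lay between D0 and D2. On the scale of log2(FPKM + 0.01), the difference was 0.82 (95% counting interval 0.80 to 0.84) for D2 vs D0, 0.51 (0.49 to 0.52) for D4 vs D2 and -0.82 (-0.84 to -0.80) for D8 vs D4. Only D4 vs D0, at 1.32 (1.30 to 1.34), passed 2-fold, and D8 was still 1.42-fold above D0. In each library LOXL2 was the lysyl oxidase with the highest FPKM, and at D4 its level was at percentile 97.7 of the reliably expressed mRNAs.

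LOXL4, a relative of LOXL2 with the same type of scavenger receptor domains, lies on the minus strand of chromosome 14 from 109571942 to 109593408. Its FPKM was 46.3, 14.9, 4.01 and 16.7 at D0, D2, D4 and D8. The D4 library was the lowest and D0 the highest, and the D8 library was close to D2. LOXL4 fell from D0 to D2, with a log2 difference of -1.64 (interval -1.69 to -1.58), and from D2 to D4, with -1.89 (-1.99 to -1.79). It then rose by 2.05 (1.96 to 2.16) from D4 to D8, which left it 2.77-fold below D0. Its highest level was 11.5-fold its lowest, a range that 146 of the 9191 mRNAs (1.59%) exceeded.

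LOXL3, a lysyl oxidase with a known role in cartilage and palate development, lies on the plus strand of chromosome 3 from 68498114 to 68516829. It had the lowest level of the 10 genes in each library, with FPKM of 3.43, 1.34, 0.521 and 1.24 at D0, D2, D4 and D8, from 1160, 331, 174 and 302 reads. As for LOXL4, the D0 library was the highest and the D4 library the lowest. The log2 difference was -1.35 (interval -1.53 to -1.18) for D2 vs D0, -1.35 (-1.64 to -1.09) for D4 vs D2 and 1.24 (0.98 to 1.53) for D8 vs D4. D8 and D2 differed by -0.11 (-0.34 to 0.12), which is within counting error, and this sign turned under median-ratio scaling. With a pseudocount of 1 in place of 0.01, which pulls low values together, D4 vs D0 was the only one of the LOXL3 differences past 2-fold.

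The falls of LOXL4 and LOXL3 ran beside lower levels of the muscle-type markers desmin and calponin. Desmin (DES) had FPKM of 436, 37.7, 4.05 and 35.7 at D0, D2, D4 and D8, and calponin (CNN1) had 94.3, 4.22, 2.39 and 24.2. The other markers of smooth muscle cells and pericytes on the list, MYH11 and RGS5, were at most 0.633 and 0.742 FPKM. RGS5 went the other way, with 0.156, 0.142, 0.742 and 0.352 FPKM and its highest level at D4. MYH11 had 0.633, 0.350, 0.341 and 0.289. The summed FPKM of these 4 genes was 531, 42.4, 7.53 and 60.6, in the order of D0, D2, D4 and D8, with DES the largest part in each library. Whether these markers and LOXL4 and LOXL3 changed in the same cells, or through a change in the cell types present, was not tested.

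LOX, the enzyme that starts most crosslinks of fibrillar collagen and elastin, lies on the minus strand of chromosome 2 from 125595115 to 125607026. Its FPKM was 56.8, 51.5, 44.5 and 64.6 at D0, D2, D4 and D8. The level was thus lowest at D4 and highest at D8, with steps of -0.14 (interval -0.20 to -0.086), -0.21 (-0.27 to -0.15) and 0.54 (0.48 to 0.59) on the log2 scale. None of the comparisons of LOX reached 2-fold.

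LOXL1, which is needed for elastic fibres, lies on the minus strand of chromosome 7 from 59481410 to 59505161. It had 13.9, 7.00, 8.31 and 7.90 FPKM at D0, D2, D4 and D8. The D0 library stood above the other 3, which lay close together. The step from D0 to D2 was -0.99 (interval -1.10 to -0.88) and just missed 2-fold. D8 and D4 differed by -0.073 (-0.19 to 0.041), within counting error, with the opposite sign under median-ratio scaling.

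Within the family, the share of LOXL2 in the summed FPKM of the 5 lysyl oxidases was 47.9%, 72.3%, 82.8% and 63.5% at D0, D2, D4 and D8. LOXL4, with 46.3 of 231 FPKM at D0, held 5.52% of the sum at D2, 1.20% at D4 and 6.75% at D8. LOX held 24.6%, 19.1%, 13.3% and 26.1% in the 4 libraries. The sum itself moved less than these shares, with 231, 269, 334 and 247 FPKM at D0, D2, D4 and D8. LOXL2, LOX and LOXL4 thus made up most of the family at D0, whereas at D4 LOXL2 alone did.

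**Figure D2:**
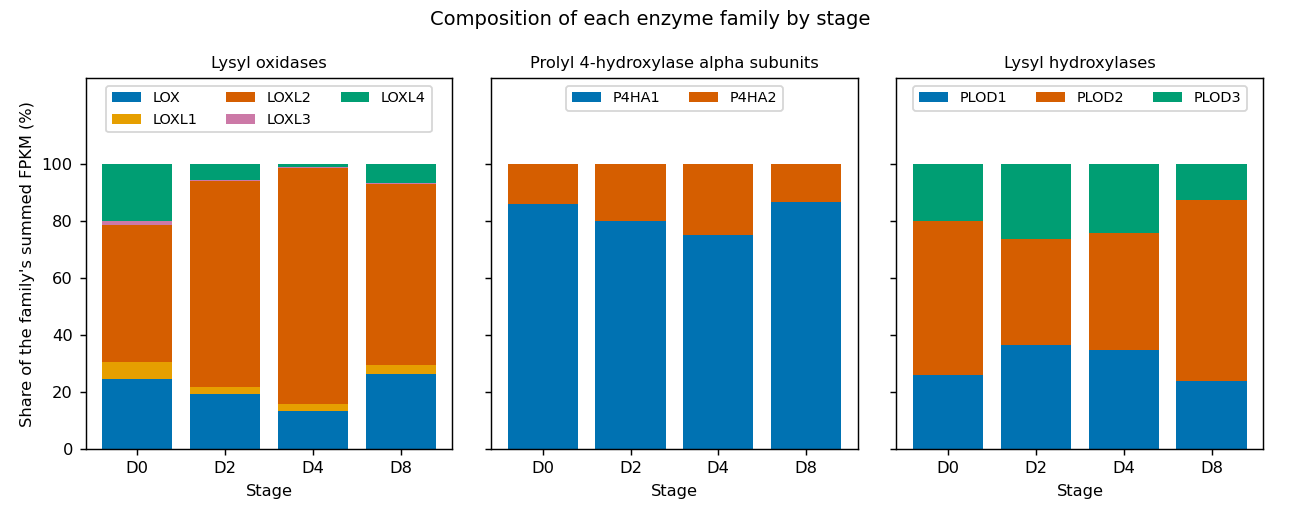
Percent of the summed FPKM of each enzyme family held by each gene, as stacked bars from 0 to 100 for D0, D2, D4 and D8. LOXL2 rises from 47.9% to 82.8% of the lysyl oxidase sum between D0 and D4, P4HA1 holds between 74.9% and 86.8% of the alpha subunits, and PLOD2 reaches 63.7% of the lysyl hydroxylases at D8.

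Both alpha subunits of prolyl 4-hydroxylase among the 10 genes followed the same order of libraries, D8 above D0, D2 and D4, but with different size. P4HA1, the main catalytic subunit in most cells, lies on the minus strand of chromosome 14 from 75827207 to 75919121. Its level was 219.9, 132, 96.1 and 288 FPKM at D0, D2, D4 and D8, the highest FPKM of the 10 genes at D0 and D8. D4 was the lowest library and D8 the highest, 3.00-fold apart. P4HA1 fell by 1.19 (interval -1.22 to -1.17) on the log2 scale between D0 and D4 and rose by 1.58 (1.56 to 1.61) between D4 and D8. The single steps from D0 to D2 and from D2 to D4, -0.74 (-0.76 to -0.71) and -0.46 (-0.49 to -0.43), did not reach 2-fold.

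P4HA2, the second catalytic subunit, known from cartilage and bone cells, lies on the minus strand of chromosome 2 from 134502210 to 134595444. It had 36.5, 33.3, 32.1 and 44.0 FPKM at D0, D2, D4 and D8. These levels lay within a 1.37-fold range, and D8 vs D4, at 0.45 (interval 0.42 to 0.49) on the log2 scale, was the largest of its differences. Of the summed FPKM of the 2 subunits, P4HA1 held 85.8%, 79.8%, 74.9% and 86.8% in the D0, D2, D4 and D8 libraries. P4HB, the protein disulfide isomerase that forms the tetramer with the alpha subunits, had 335, 325, 277 and 295 FPKM and was chosen for mention after its values were seen. The sum of the 2 alpha subunits was 256, 165, 128 and 332 FPKM at D0, D2, D4 and D8, so that it exceeded P4HB at D8 and was under it in the other 3 libraries.

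Of the lysyl hydroxylases, PLOD2 rose at D8 while PLOD1 and PLOD3 stayed within 2-fold. PLOD2, which hydroxylates lysines in the telopeptides of collagen, lies on the minus strand of chromosome 13 from 86402673 to 86513167. Its FPKM was 46.8, 29.9, 32.8 and 81.5 at D0, D2, D4 and D8. The D2 and D4 libraries were close to each other and the lowest, and D8 was the highest. The log2 difference was -0.65 (interval -0.69 to -0.61) for D2 vs D0, 0.13 (0.088 to 0.18) for D4 vs D2 and 1.31 (1.28 to 1.35) for D8 vs D4. D8 was also 2.72-fold above D2 and 1.74-fold above D0.

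PLOD1, which hydroxylates lysines within the triple helix, lies on the plus strand of chromosome 6 from 71987938 to 72019712 and had 22.6, 29.0, 27.7 and 30.3 FPKM at D0, D2, D4 and D8. The D0 library was the lowest, and the others lay within 1.09-fold of each other. PLOD1 at D8 vs D2 differed by 0.062 (interval 0.012 to 0.11) on the log2 scale, and the sign turned when FPKM was scaled to the protein-coding sum. PLOD3, which also transfers sugars to hydroxylysine, lies on the minus strand of chromosome 3 from 8911787 to 8919525 and had 17.4, 20.9, 19.4 and 16.2 FPKM. Its range of 1.29-fold was the smallest of the 10 genes, and 82.8% of the mRNAs had a larger one. D8 vs D0, at -0.10 (-0.17 to -0.037), had the opposite sign under median-ratio scaling.

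PLOD2 was the lysyl hydroxylase with the highest FPKM in each library, with 54.0%, 37.5%, 41.1% and 63.7% of the summed FPKM of the 3 genes in the D0, D2, D4 and D8 libraries. PLOD1 was close to it at D2, with 36.3%. The sum was 86.8, 79.9, 79.8 and 128 FPKM, and the D8 library was the highest.

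Counted over the 10 genes, 16 of the 60 differences between libraries were past 2-fold, and they belonged to LOXL2, LOXL3, LOXL4, P4HA1 and PLOD2. The counting interval left out 0 for 58 of the 60, which says nothing of the spread between cultures. The share of such intervals over all mRNAs was not worked out, so that the count cannot be read as a trait of the 10 genes. The other 5 genes never reached 2-fold. At D2 vs D0, LOXL3 and LOXL4 fell and no gene rose, beside 10.1% of the 9191 mRNAs that fell and 6.67% that rose. At D4 vs D2, the same genes, LOXL3 and LOXL4, fell again and no gene rose, where 0.838% of mRNAs fell and 4.24% rose. At D8 vs D4, 4 genes (LOXL3, LOXL4, P4HA1 and PLOD2) rose and none fell, where 4.43% of mRNAs rose and 10.1% fell.

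Between D0 and D4, LOXL2 rose and LOXL3, LOXL4 and P4HA1 fell, while 10.4% of mRNAs rose and 8.81% fell. D8 vs D0 left LOXL3 and LOXL4 lower and no gene higher, beside 3.68% of mRNAs lower and 3.60% higher. For D8 vs D2, P4HA1 and PLOD2 were higher and no gene lower, beside 7.01% of mRNAs higher and 4.79% lower. These comparisons share libraries and are not independent of each other.

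The median log2 difference of the 10 genes was -0.39 for D2 vs D0, where that of all 9191 mRNAs was -0.025. It was -0.090 for D4 vs D2 (all mRNAs 0.092) and 0.49 for D8 vs D4 (all mRNAs -0.21). For D4 vs D0 it was -0.43 (all mRNAs 0.059), for D8 vs D0 0.23 (all mRNAs -0.18) and for D8 vs D2 0.17 (all mRNAs -0.12). Median-ratio scaling shifts all genes of a comparison by about the same amount, and for D8 vs D4 it moved the median of all mRNAs to -0.013 and that of the 10 genes to 0.69. Of the 10 genes, 5 were highest at D8, as were 9.51% of mRNAs, and 5 were lowest at D4, as were 17.5% of mRNAs.

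**Figure D3:**
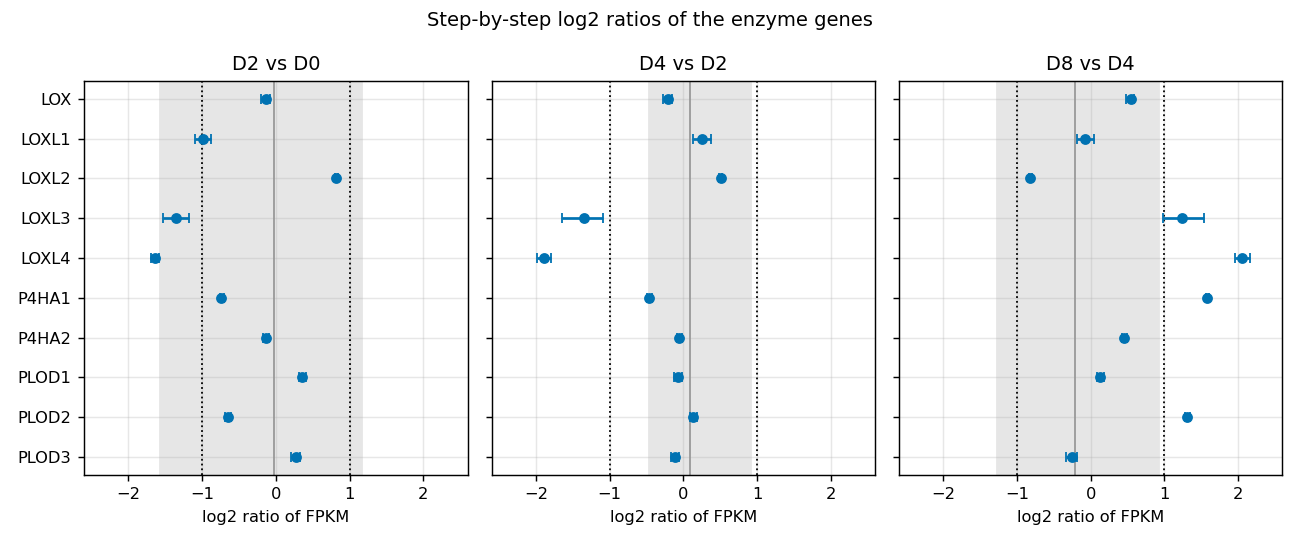
Log2 difference of each enzyme gene between successive libraries (D2 vs D0, D4 vs D2 and D8 vs D4), as points with 95% counting intervals, which are mostly smaller than the points. The grey band covers percentiles 5 to 95 of the 9191 reliably expressed mRNAs, the grey line is their median and dotted lines mark 2-fold. At D8 vs D4, LOXL3, LOXL4, P4HA1 and PLOD2 lie above the band, which ends at 0.93, and at D4 vs D2 LOXL4 and LOXL3 lie below it (-1.89 and -1.35 against -0.46).

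Likeness between profiles was measured as the root mean square difference of log2 levels over the 4 libraries, each centred on its own mean. LOX and P4HA2 were the most alike of the 10 genes, at 0.068, and 21 of the other mRNAs were nearer to LOX. For LOXL4 the nearest of the enzymes was LOXL3, at 0.34, with 6 mRNAs nearer. P4HA1 and PLOD2 differed by 0.27, with 91 mRNAs nearer to P4HA1. Other enzymes had no such near partner. For LOXL2, 2843 mRNAs were nearer than its nearest enzyme, PLOD1, at 0.41, and for LOXL1, 3726 were nearer than LOX, at 0.39. PLOD1 and PLOD3 differed by 0.20, with 1185 mRNAs nearer to PLOD1 and 2806 nearer to PLOD3.

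Over all mRNAs, the profiles nearest to LOXL4 were those of SPP1 (osteopontin) at 0.224, CHD5 at 0.235, C12H17orf67 at 0.293, AWN at 0.318 and DDAH1 at 0.322. SPP1 had 27.0, 12.5, 3.36 and 13.8 FPKM at D0, D2, D4 and D8. Nearest to LOXL3 were UCHL1 at 0.105, TMEM255A at 0.202, RTN2 at 0.211, IL33 at 0.232 and EPDR1 at 0.237. UCHL1, a deubiquitinating enzyme, had 161, 51.8, 22.1 and 50.9 FPKM. All of these genes were highest at D0 and lowest at D4, and with 4 libraries many profiles are alike.

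The enzymes were set beside their substrates, the fibrillar collagens, in the same libraries. The summed FPKM of the fibrillar collagens was 3476, 4986, 5549 and 5199 at D0, D2, D4 and D8. Per 1000 FPKM of these collagens the prolyl 4-hydroxylase alpha subunits had 73.8, 33.2, 23.1 and 63.9 FPKM at D0, D2, D4 and D8. The ratio was thus lowest at D4 and near its D0 value again at D8. Lysyl hydroxylases ran at 25.0, 16.0, 14.4 and 24.6 per 1000, with the same order of D0 and D8 above D2 and D4. For the lysyl oxidases the values were 66.4, 54.0, 60.2 and 47.6, with D8 the lowest. COL1A2 was the largest part of the collagen sum in each library, with 1987, 2907, 2646 and 2484 FPKM, and was named after its values were seen. With the median over single collagens in place of the sum, the lysyl oxidases were higher at D4 than at D0, by 0.42 on the log2 scale, and not lower.

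Single collagens changed in both directions. Of the 8 fibrillar collagens past the filter, 3 rose and 2 fell at least 2-fold between D0 and D4, with a median of 0.11. Of all mRNAs, 10.4% rose and 8.81% fell. COL3A1, named after its values were seen, rose from 491 to 2058 FPKM, while COL1A2 went from 1987 to 2646. COL5A3, a chain of type V collagen, rose from 1.23 to 37.1 FPKM and COL27A1 from 0.751 to 6.16. COL5A1, another type V chain, fell from 61.2 to 21.3 FPKM and COL11A1 from 6.65 to 0.529. COL11A1 then rose to 44.1 FPKM at D8, a log2 difference of 6.36 from D4, the largest of this list.

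The other collagen hydroxylation and folding genes of the endoplasmic reticulum mostly stayed within 2-fold. Of 14 past the filter, none rose or fell 2-fold in 5 of the 6 comparisons, and at D4 vs D0 P3H4 alone fell, by 1.15 on the log2 scale. Of all mRNAs, 8.81% fell at D4 vs D0, and 0.838% to 10.4% passed 2-fold in each direction of a comparison. Counts of 0 or 1 among 14 are near these shares. At D8 vs D4 their median was -0.006, with 7 higher and 7 lower, beside -0.21 for all mRNAs, of which 4.43% rose, so that a count of 0 among 14 is near that share. P3H4, a partner of lysyl hydroxylase 1, had 17.4, 12.0, 7.80 and 13.6 FPKM. The prolyl isomerase FKBP7 had 60.8, 49.1, 33.3 and 66.1 FPKM and differed by 0.99 for D8 vs D4, and under median-ratio scaling 3 genes of the list rose 2-fold in that comparison. P3H1, a prolyl 3-hydroxylase, and P4HA3, a further alpha subunit, differed by 0.66 and 0.37 for D4 vs D0. P4HA3 had at most 10.1 FPKM, which was below P4HA1 and P4HA2 in each library.

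Among 7 other substrates and partners of the lysyl oxidases, elastin (ELN) had the widest swing. It had 22.6, 6.77, 1.41 and 25.7 FPKM at D0, D2, D4 and D8, with a log2 difference of -4.00 for D4 vs D0 and 4.18 for D8 vs D4. Like LOXL4 and LOXL3, it was lowest at D4. Fibromodulin (FMOD), a collagen-binding proteoglycan that steers lysyl oxidase, fell from 269 FPKM at D0 to 79.0 at D4 and stayed at 78.5 at D8. Periostin (POSTN), which brings lysyl oxidase to the matrix, had 11.1, 6.59, 21.6 and 54.2 FPKM, and fibrillin 1 (FBN1) had 91.5, 134, 134 and 81.6.

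Of the procollagen proteinases and their enhancers, 3 genes passed the filter. BMP1, which also activates the LOX precursor, had 9.83, 13.7, 16.6 and 9.84 FPKM at D0, D2, D4 and D8 and did not reach 2-fold. ADAMTS2, which removes the amino-terminal propeptide, had 14.0, 21.8, 19.8 and 15.2 FPKM. PCOLCE2, an enhancer of BMP1, had 53.5, 84.8, 65.0 and 21.3 FPKM and fell by 1.61 on the log2 scale between D4 and D8. The 4 genes of copper and ascorbate supply past the filter, ATP7A, SLC31A1, ATOX1 and SLC23A2, had no 2-fold change in any comparison. Of all mRNAs, 0.838% to 10.4% passed 2-fold in each direction of a comparison, so that a count of 0 among 4 is near that share.

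Genes known to respond to low oxygen were examined because several of the enzymes are in this class. Of 15 such genes that are not among the 10, 6 rose and none fell at D8 vs D4, with a median of 0.88, beside 4.43% of all mRNAs that rose and their median of -0.21. In any size, 13 of the 15 were higher at D8 vs D4 and 14 were lower at D2 vs D0. Of all mRNAs, more were lower than higher in both comparisons, since their medians were -0.21 and -0.025. At D2 vs D0, 3 fell and 1, EGLN3, rose, beside 10.1% of all mRNAs that fell and 6.67% that rose. EGLN3 was no longer past 2-fold with a pseudocount of 1. The median of the 15 genes was -0.55, beside -0.025 for all mRNAs. Lactate dehydrogenase A (LDHA) had 519, 187, 197 and 471 FPKM at D0, D2, D4 and D8, and the glucose transporter SLC2A1 had 20.1, 3.46, 7.81 and 18.1. Both had their lower levels at D2 and D4, as P4HA1, PLOD2, LOX and P4HA2 did. Of the other enzymes, LOXL2 was highest at D4, PLOD3 was highest at D2 and PLOD1 was lowest at D0. Not all genes of the hypoxia list had their lower levels at D2 and D4. ADM, with 157, 96.4, 76.3 and 77.0 FPKM, stayed low at D8, and ENO1 had 551, 477, 583 and 553. ADM and ENO1 were named after their values were seen. EGLN3, an oxygen-sensing prolyl hydroxylase, had 0.618, 1.56, 1.43 and 3.13 FPKM, and PFKFB4 had 1.54, 1.27, 2.25 and 2.02. Whether low oxygen had a part in any of these levels was not tested.

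The adipocyte marker list, a check of the stage labels, had 7 genes past the filter, which all rose at least 2-fold at D2 and at D4 against D0. Of all mRNAs, 6.67% rose at D2 and 10.4% at D4. PLIN1, a lipid droplet protein, had 2.28 FPKM at D0, 215 at D4 and 90.3 at D8, and the adipokine ADIPOQ had 3.80, 179 and 158. The transcription factor CEBPA had 15.4, 162 and 37.1 FPKM in the same libraries, and the fatty acid carrier FABP4 had 77.5, 853 and 1557. The markers did not move together after D4. Between D4 and D8, 4 of the 7 fell and none rose 2-fold, beside 10.1% of all mRNAs that fell and 4.43% that rose. FABP4 had a log2 difference of 0.87. Under median-ratio scaling 3 fell and 1 rose, and without the filter 4 fell and 2 rose, among them CIDEC, a lipid droplet protein that went from 5.01 to 54.6 FPKM.

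**Figure D4:**
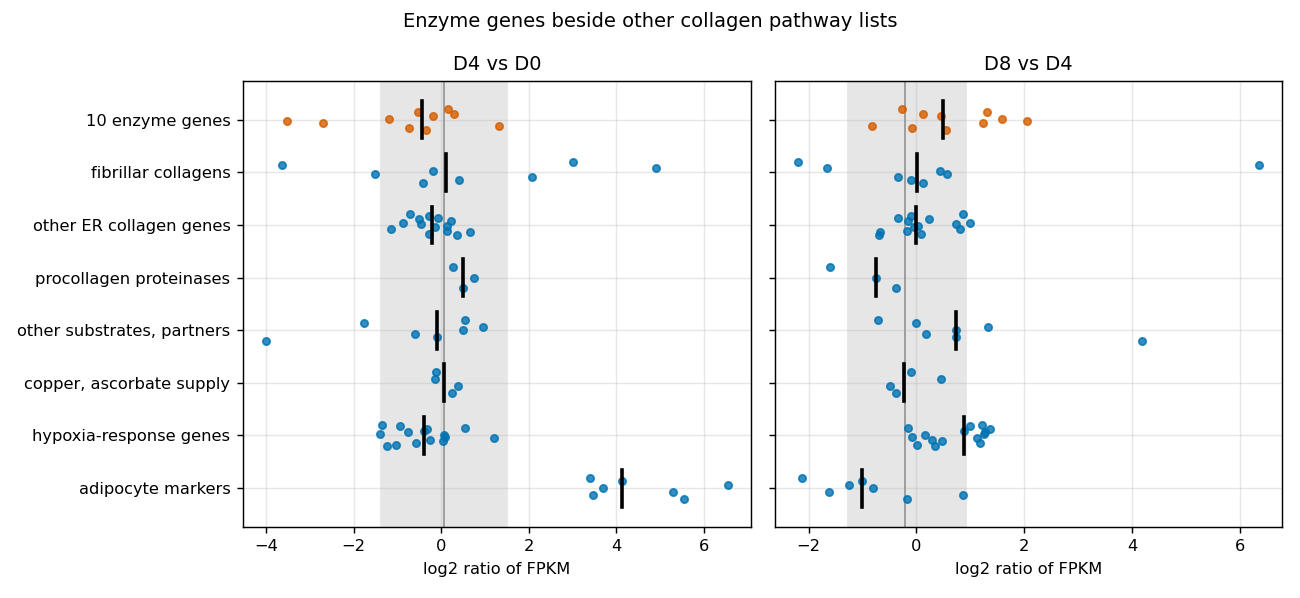
Log2 difference of the single genes of each pathway list and of the 10 enzymes for D4 vs D0 and D8 vs D4, 1 point per gene. The grey band covers percentiles 5 to 95 of the reliably expressed mRNAs, the grey line is their median and black bars mark the median of each list. The other endoplasmic reticulum genes stay within 2-fold except P3H4 at D4 vs D0 (-1.15), and 6 of the 15 hypoxia-response genes lie past 2-fold at D8 vs D4.

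CircRNAs, which are made by back-splicing of exons and were measured apart from the mRNAs, were listed for 4 of the 10 genes. Of 8623 circRNAs, 16 had both ends in an enzyme gene on its strand, with 7 in P4HA1, 5 in LOXL2, 3 in PLOD2 and 1 in P4HA2, and 6 of the 16 passed the filter. Their deposited unit, SRPBM, scales reads across the back-splice junction to the mapped reads, and a single such read equals 6.42 SRPBM in the D0 library, 7.27 in D2, 5.94 in D4 and 8.40 in D8. Circles with fewer than 2 junction reads were not kept, so that a value of 0 stands for 0 or 1 read.

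For P4HA1, the junction reads summed to 26, 46, 48 and 33 at D0, D2, D4 and D8. Scaled to SRPBM, the sums were 167, 334, 285 and 277, so that D0 was the lowest and D8 was close to D4. P4HA1 mRNA was lowest at D4 and highest at D8. For D4 vs D0, the circRNA sum differed by 0.77 (interval 0.055 to 1.52) on the log2 scale of SRPBM, where the mRNA differed by -1.19. For D8 vs D4, it differed by -0.040 (-0.73 to 0.63), where the mRNA rose by 1.58, a value outside the interval. At D0, 3 of the 7 P4HA1 circles were above 0, and single reads not kept for the others are not counted. The interval of D4 vs D0, whose lower end lies close to 0, does not allow for them. The commonest circle, ssc_circ_0007186, spans 75895155 to 75897301 on chromosome 14 and had 13, 24, 22 and 26 junction reads.

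The LOXL2 circRNAs had 2, 12, 5 and 23 junction reads in the order of D0, D2, D4 and D8. For D8 vs D4 their sum differed by 2.70 (interval 1.28 to 4.45), while LOXL2 mRNA differed by -0.82. At D4, 1 of the 5 LOXL2 circles was above 0, so that single reads not kept could raise the D4 sum of 5 reads. In PLOD2, the 3 circles had 30, 20, 24 and 30 junction reads together, and the intervals of their differences were wide, with D4 vs D0 at -0.43 (-1.27 to 0.39) beside -0.52 for the mRNA. P4HA2 had 1 circle with 3 reads at D0 and a value of 0 in the other 3 libraries.

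The makeup of the PLOD2 circles differed between libraries, a pattern described after the values were seen. All 3 share the junction position 86452535 on chromosome 13 and end at 86459135 (ssc_circ_0006700), 86471251 (ssc_circ_0006701) and 86474319 (ssc_circ_0006702). The longest, ssc_circ_0006702, had 27 of the 30 reads at D0 (90.0%, exact 95% interval 73.5 to 97.9) and 9 of 30 at D8 (30.0%, 14.7 to 49.4). The shortest, ssc_circ_0006700, was listed at 0 beside 30 reads at D0, which with 1 read not kept allows up to 16.7%, and had 21 of 30 at D8 (70.0%, 50.6 to 85.3). At D4 the middle one, ssc_circ_0006701, had 14 of 24 reads (58.3%, 36.6 to 77.9). The intervals of D0 and D8 do not overlap for the longest and the shortest circle. How often this holds over the circles of all host genes was not examined. The intervals cover counting error only, since reads from 1 pooled library are not independent cultures.

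**Figure D5:**
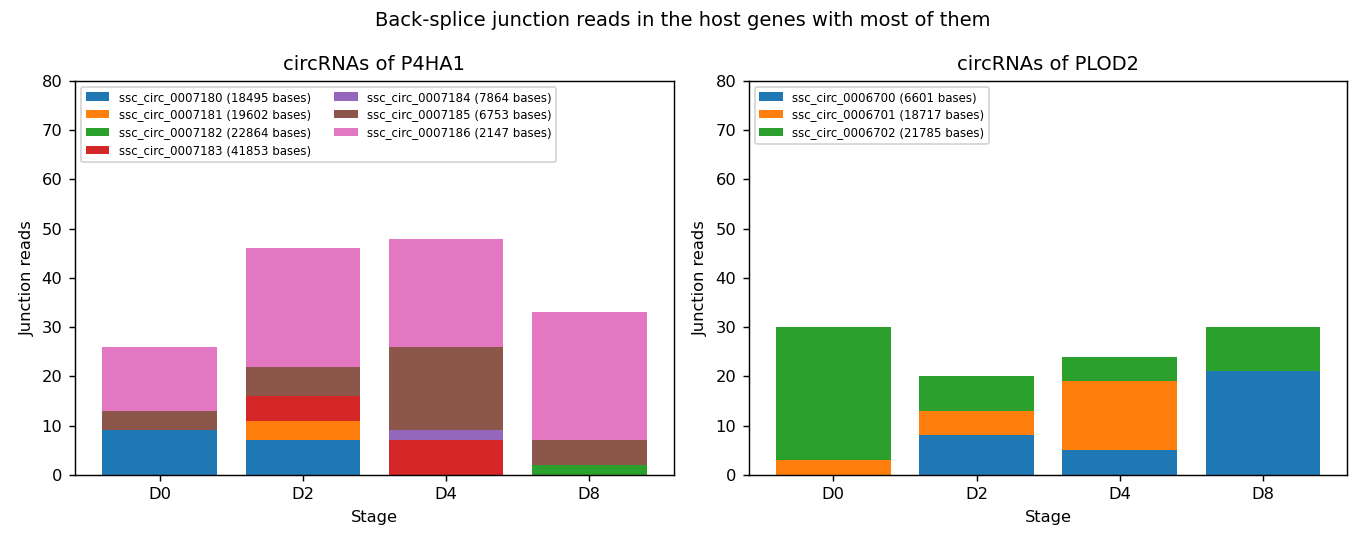
Back-splice junction reads at D0, D2, D4 and D8 for the circRNAs of P4HA1 and PLOD2, as stacked bars that start at 0, 1 colour per circRNA, with the span between its ends in the legend. P4HA1 circles sum to 26, 46, 48 and 33 reads, and in PLOD2 the longest circle gives 27 of 30 reads at D0 and 9 of 30 at D8.

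Near the 10 genes, 10 lncRNAs overlapped or lay within 50 kb, and 1 of them was reliably expressed. LOC110259888, which lies 30023 bases from PLOD3, had 2.37, 1.45, 1.77 and 2.37 FPKM at D0, D2, D4 and D8, whereas PLOD3 mRNA was highest at D2. The assembled transcript MSTRG.112539, 7735 bases from PLOD2 on the same strand, was under the filter. It had 0, 10, 1 and 50 reads at D0, D2, D4 and D8, so that D8 was the highest library for both.

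Some of the enzyme genes overlap genes on the other strand. The libraries keep the strand, but whether it was used in counting is not given in the sources used here, so that reads in the shared stretch may be split. The overlap concerns LOXL3 with HTRA2 (11.7, 10.8, 10.8 and 7.67 FPKM) and PLOD3 with ZNHIT1 (84.4, 105, 56.5 and 72.2 FPKM). P4HA2 overlaps PDLIM4, with 18.9, 13.6, 17.6 and 17.2 FPKM, and P4HA1 overlaps NUDT13, with at most 1.96 FPKM. The partners of LOX and LOXL1 were at most 0.135 FPKM.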

How the data were processed

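The authors aligned trimmed reads to the pig genome Sscrofa11.1, with HISAT2 2.0.5 per the submitters' processing notes, and detected circRNAs from BWA alignments. They deposited FPKM for mRNAs and lncRNAs and, in the same column, SRPBM as a signal per circRNA. The counting tool and its use of strand are not given in the sources used here.

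From the deposited FPKM, library totals and whole reads per gene were worked out from the steps of low values, with whole reads for 20154 of 20155 genes above 0 in at least 2 libraries. In simulated data for D2 vs D0 on 20154 genes, 96.0% of genes had the simulated reads and 200 genes changed 4-fold were all called. The simulation held counting noise only, and the changed genes had many reads. They were thus near certain to pass 2-fold, so that their calls check the arithmetic alone. Log2 differences used a pseudocount of 0.01. A gene was called at 2-fold among mRNAs with FPKM of at least 1 in at least 3 libraries, with no test, since each of D0, D2, D4 and D8 is 1 pooled library. Exact 95% counting intervals came from the reads of both libraries. Gene positions were matched to RefSeq (Sscrofa11.1) by symbol, start and end for all 10 genes.

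All 10 genes were named, and from each pathway list the 2 genes with the highest and the 2 with the lowest D4 vs D0 difference, with the markers. The genes and lists were chosen with earlier results of these data known. The alternatives were pseudocounts of 0.1 and 1, median-ratio scaling, scaling to the protein-coding sum, no filter, 1.5-fold calls and a median over collagens. Sequences were not used, and a search of promoters for motifs was not run here. Python 3.11.15, numpy 2.4.6, pandas 2.3.3, scipy 1.17.1 and matplotlib 3.10.9 were used.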

Additional observations from a re-analysis of the deposited data

How the results depend on the processing

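No paired analysis was possible because each stage has 1 pooled library, and for the same reason no library could be left out. Of the 60 differences of the enzyme genes, 16 were past 2-fold as reported, and the same 16 were past it with a pseudocount of 0.1 and under both other scalings. A pseudocount of 1 left 12 of them and removed 4 of LOXL3. With it, 1 gene and not 2 was lower for D2 vs D0, for D4 vs D2 and for D8 vs D0. For D8 vs D4, 3 genes and not 4 were higher. The sign turned for 3 differences under median-ratio scaling and for 1 under protein-coding scaling, which lay between -0.11 and 0.062 as reported. With calls at 1.5-fold, 1 gene was higher and 5 were lower for D2 vs D0, 1 was lower for D8 vs D4, 4 and not 3 were lower for D4 vs D0, and 1 was higher and 3 were lower for D8 vs D0. The other counts stayed as reported. Leaving out the filter on low FPKM changed no count of the 10 genes.

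The median difference of the 10 genes became -0.28 for D2 vs D0, -0.16 for D4 vs D2 and 0.052, in place of 0.17, for D8 vs D2 under protein-coding scaling. It became -0.17 for D4 vs D2, 0.69 for D8 vs D4, 0.38 for D8 vs D0 and 0.29 for D8 vs D2 under median-ratio scaling, which moved the median of all mRNAs from -0.21 to -0.013 for D8 vs D4. With the median over single collagens, the difference of enzyme per collagen was -0.12 (D2 vs D0), -0.45 (D8 vs D4) and 0.42 (D4 vs D0) for the lysyl oxidases. It was -0.97, 1.35 and -1.11 for the alpha subunits and -0.46, 0.66 and -0.23 for the lysyl hydroxylases, in the same order. Here the single collagens weigh equally, while in the sum COL1A2 weighs most. Depth limited LOXL3, with 174 reads at D4, and the circRNAs, with at most 48 junction reads per gene and library.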
